A study of Homo sapiens with 19 samples.

Results

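Human liver organoids kept on an orbital shaker were compared with and without OA in 4 of the 19 libraries of the series. The libraries were chosen by their sample titles, 2 labelled as treated with OA at 500 µM and 2 labelled as the control for OA, and they held 14863 of the 85951 kept cells of the 14 shaker libraries. All organoids came from W01, a wild-type human pluripotent stem cell line distributed by WiCell, and the comparison therefore rests on 1 line. The growth protocol gives shaker organoids 20 days of culture and 5 days of treatment, and the libraries were sampled on day 25. The labels do not spell out OA, do not name it in the treatment protocol and do not say what its control medium held, so the abbreviation is kept. A PA experiment with the same labelled concentration of 500 µM and its own control, again 2 libraries each, is used as a comparison at the end. Every one of these shaker organoids had an extra wash and 10 additional minutes of trypsin, and each library was made with the 10x Genomics 3′ version 3 kit, which counts transcripts by unique molecular identifiers (UMIs) read near the 3′ end. The labels do not say whether the 2 libraries of a group came from separate cultures, so the p-values measure the spread between these libraries, which may be technical. Some alternatives set OA against the 2 untreated shaker libraries of day 25, which were uneven in depth at 56518339 and 29637158 kept UMIs. Others fit all 14 shaker libraries, which also include 2 treated with TGFB1 at 10 ng/ml and 2 controls for TGFB1.

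Cells that take up fatty acids activate them with coenzyme A and then send them to mitochondria and peroxisomes for oxidation or esterify them into triglyceride, which is held in lipid droplets coated by perilipins. In hepatocytes and in enterocytes of the gut, part of the triglyceride leaves the cell on lipoproteins carried by apolipoproteins such as APOB. Nuclear receptors that sense fatty acids, the PPAR family among them, switch on droplet, oxidation and binding protein genes, and the SREBP factors switch on sterol and fatty acid synthesis when membranes lack them. NF-kB is a transcription factor family that raises chemokines such as CXCL1 and CCL20, and its own inhibitor NFKBIA, during inflammation.

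Cells were kept where 500 or more genes were detected and mitochondrial counts were 20% or less. The libraries of OA control replicates 1 and 2 held 5456 and 3095 cells and those of OA replicates 1 and 2 held 3089 and 3223. They were close in total depth, at 52253697 to 55842959 UMIs in kept cells, whereas the median depth per kept cell ran from 5472.5 UMIs in control replicate 1 to 14124 in control replicate 2, with 9689 and 7555 in the OA libraries. Mitochondrial counts took 7.07% to 8.34% of UMIs. Ribosomal protein genes took 22.9% and 21.3% of UMIs in the control libraries and 11.8% and 12.7% in the OA libraries. Each pair of libraries shared 4 to 8 cell barcodes. TMM, the trimmed mean of M-values, sets library sizes on the assumption that most genes change little. Scaling by total counts in its place moved the median log2 difference of all genes by -0.33. Of the genes then called changed 3621 were higher and 7452 lower, against 5500 higher and 5371 lower with TMM. Scaling by the upper quartile moved the median by -0.32, with 3845 higher and 7709 lower. Gene values are given as TMM-scaled CPM, a gene's UMIs as a part of the library's scaled total, and directions that turn with the scaling are named where they occur.

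Of 18263 genes tested in whole libraries, 10871 were called at an edgeR adjusted p under 0.05, which is 59.5% of them (30.1% higher with OA, 29.4% lower). With more than every second gene called, a count of changed genes on a list was read against these shares. Under scaling by total counts the shares come from 3621 higher and 7452 lower of the same 18263 genes. With the untreated shaker libraries as reference they come from 2697 higher and 2666 lower of 18264.

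The cell makeup of the libraries differed along with their RNA. Of 15 clusters built from the 4 libraries, clusters 0 and 9 were mesenchymal-like, led by MFAP4, PDGFRA and COL6A3 and by ACTA2, TAGLN and MYL9. They held 33.5% and 40.7% of kept cells in control replicates 1 and 2, and 0.842% and 0.621% (26 and 20 cells) in OA replicates 1 and 2. The mean share was 37.12 ± 5.083% with the control and 0.7311 ± 0.1564% with OA (SD, n = 2 libraries each), a difference of -36.39 percentage points, and the groups did not overlap. With 2 libraries against 2 the exact permutation test (two-sided) cannot go below p = 0.33, which is the value it gave. In clusters rebuilt without the genes called in whole libraries the shares were 34.9% and 44.9% in the control and 1.17% and 1.09% with OA, and with each cell thinned to 2000 UMIs the difference was -29.59 points. Cells reach a library only if they survive dissociation, so these are shares of recovered cells.

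**Figure D1:**
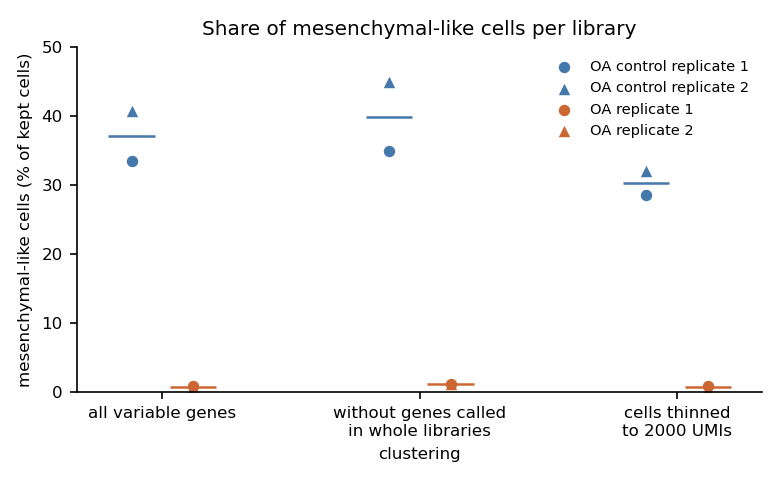
Share of mesenchymal-like cells among kept cells (%, y axis) in each of the 4 libraries under 3 ways of clustering (x axis); blue points are control libraries, orange points OA libraries, circles replicate 1, triangles replicate 2 and lines group means. Across the 3 clusterings the lowest control value is 28.5% and the highest OA value 1.17%.

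Only 2 of the 15 clusters, the cycling-like cluster 6 and the squamous-like cluster 7, held at least 50 cells in each of the 4 libraries. The fall or rise of a gene in a whole library can therefore come from fewer cells of a type or from less RNA per cell, and these cannot be told apart here. For that reason the gene lists are given for whole libraries and for the cells left when the mesenchymal-like clusters are taken out (17730 genes tested, 54.7% called, 27.8% higher and 26.9% lower), and some of them for clusters 6 and 7 alone. These sets share libraries, so their values are set side by side and are not independent.

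Taking out clusters 0 and 9 did not take out every cell with mesenchymal genes. Cluster 11, whose leading genes are mitotic, had 201 and 151 control cells and 0 and 1 OA cells, and over these cells COL1A1 was at 2543 CPM, PDGFRA at 154 CPM and EPCAM at 23 CPM. Clusters 7 and 13 also had more COL1A1 and COL3A1 together than EPCAM. Where genes of the mesenchyme or of the cell cycle are concerned, values are therefore given as well without clusters 7, 11 and 13, a choice made after the clusters were seen (17215 genes tested, 56.3% called, 29.7% higher and 26.7% lower). Cluster 7 is squamous-like, so that set lacks squamous-like cells too.

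Several defining genes of mature hepatocytes were near 0 in these libraries. Of 35 hepatocyte secreted and metabolic genes, 6 had counts too low to test in whole libraries (AHSG, HPD, CYP3A4, CYP2E1, CYP8B1 and CYP7A1), while all 30 gut epithelial genes were tested. The summed level of the gut list was 6187 and 3504 CPM in the control libraries and 30820 and 27140 CPM with OA, and that of the hepatocyte list 11720 and 8786 CPM against 15120 and 13930 CPM. Libraries labelled as liver thus held gut transcripts in both groups. Of 12 leukocyte and macrophage markers, summed at 429.1 to 580.6 CPM, 11 had counts and CD14 was at 0 in every library. CD68 and FCER1G were called changed in whole libraries. PTPRC, highest in cluster 7, stood at 0.092 CPM there. Endothelial markers summed to 24.01 and 33.65 CPM in the controls and 19.75 and 15.46 CPM with OA.

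Lipid droplet genes were higher with OA. PLIN2 (chr9:19108375-19149290, GRCh38), the perilipin that coats droplets in most cells, stood at 159.5 and 146 CPM in control replicates 1 and 2 and at 1032 and 945 CPM in OA replicates 1 and 2, a log2 difference of 2.69 ± 0.14 (SE; edgeR adjusted p = 0.000142). The groups were well apart and the replicates of each lay close together. Of 27 genes for lipid droplets and triglyceride turnover, 24 were tested in whole libraries, and 15 rose and 5 fell, with a median log2 difference of 1.42 against -0.052 over all genes tested. Without control replicate 1 the count that fell was 2. Outside the mesenchymal-like clusters 14 rose and 4 fell.

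The enzyme DGAT2, which makes triglyceride from diacylglycerol, went from 17.6 and 7.64 CPM to 219 and 169 CPM (log2 difference 3.94 ± 0.44, edgeR adjusted p = 0.00146). CIDEC, which fuses small droplets into large ones, went from 9.71 and 7.26 CPM to 133 and 114 CPM (3.86 ± 0.18, edgeR adjusted p = 0.00014). Its relative CIDEB, which acts in lipoprotein lipidation, went from 8.61 and 5.68 CPM to 111 and 85.3 CPM (3.78 ± 0.25, edgeR adjusted p = 0.000264). For each of these 3 genes both OA libraries were several times higher than either control library. MGLL, the lipase that releases the last fatty acid of a triglyceride, rose as well, from 26.1 and 17.3 CPM to 268 and 261 CPM (3.61 ± 0.22, edgeR adjusted p = 0.000193).

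Genes of the same list moved the other way. HILPDA, an inhibitor of the droplet lipase PNPLA2 that hypoxia and fatty acids both induce in other settings, fell from 25.5 and 31.2 CPM to 7.59 and 9.44 CPM (log2 difference -1.74 ± 0.16, edgeR adjusted p = 0.000475). G0S2, another inhibitor of PNPLA2, fell from 1.4 and 1.47 CPM to 0.792 and 0.726 CPM (-0.92 ± 0.26, edgeR adjusted p = 0.0225). It was low in every library, and its call was lost without any 1 of the 4 libraries (adjusted p 0.0561 to 0.112). It was also lost under 4 other settings (0.0536 to 0.224). The lipase PNPLA2 itself was among the 15 genes that rose.

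Within the perilipin family the response was uneven. PLIN3 went from 71.1 and 79.1 CPM to 147 and 133 CPM (log2 difference 0.90 ± 0.11, edgeR adjusted p = 0.00129). PLIN4 was called higher at a very low level, 0.0845 and 0.0320 CPM against 0.584 and 0.363 CPM (edgeR adjusted p = 0.00573). PLIN5, the perilipin of oxidative tissues, did not pass, at 0.457 and 0.592 CPM against 0.292 and 0.363 CPM (edgeR adjusted p = 0.148), and PLIN1, the perilipin of fat cells, was too low to test.

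The fatty acid oxidation list moved in 1 direction in whole libraries. Of 28 genes tested for oxidation and ketogenesis 21 rose and 0 fell, with a median log2 difference of 1.37, and outside the mesenchymal-like clusters 21 rose and 1, ETFB, fell. CREB3L3 (chr19:4153631-4173054), a membrane-bound transcription factor of liver and intestine that works together with PPARA in fasting, went from 9.96 and 7.92 CPM to 216 and 181 CPM (log2 difference 4.48 ± 0.18, edgeR adjusted p = 0.000101). CPT1A (chr11:68754620-68844410), which admits long-chain fatty acids to mitochondria, went from 8.13 and 6.53 CPM to 87 and 73.8 CPM (3.46 ± 0.16, edgeR adjusted p = 0.000135). In both genes the lower OA library stood far above the higher control library. PDK4, the kinase that turns pyruvate away from oxidation, went from 3.03 and 3.33 CPM to 24.6 and 19.2 CPM (2.79 ± 0.17, edgeR adjusted p = 0.000181), and ETFDH, which passes electrons from fatty acid oxidation to the respiratory chain, from 14.5 and 12.7 CPM to 98.4 and 77.4 CPM (2.70 ± 0.16, edgeR adjusted p = 0.000177). Genes of mitochondrial oxidation (CPT2, SLC25A20, ACADM, ACADVL, HADHA) and of peroxisomal oxidation (EHHADH, HSD17B4) were all among those that rose.

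Uptake and binding genes rose with exceptions. The fatty acid transporter CD36 went from 0.186 and 0.40 CPM to 17.3 and 15.8 CPM (log2 difference 5.80 ± 0.29, edgeR adjusted p = 0.000142). ACSL5, which activates fatty acids in enterocytes and hepatocytes, went from 16.9 and 10.4 CPM to 311 and 229.9 CPM (4.31 ± 0.30, edgeR adjusted p = 0.000298). Of the 22 genes on the list 13 rose and 5 fell in whole libraries.

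The 7 fatty acid binding proteins, small carriers that are each typical of a tissue, did not move together. FABP1, the liver form, went from 1472 and 672 CPM to 10179 and 8733 CPM (log2 difference 3.14 ± 0.41, edgeR adjusted p = 0.00175). FABP2, the intestinal form, went from 13.3 and 6.27 CPM to 1918 and 1251 CPM (7.34 ± 0.51, edgeR adjusted p = 0.000349). FABP3, the heart form, also rose, from 9.2 and 7.29 CPM to 26.1 and 42.3 CPM (2.05 ± 0.26, edgeR adjusted p = 0.00168). These 3 carriers were higher in both OA libraries than in either control library. FABP5, the epidermal form, fell from 367 and 354 CPM to 206 and 192 CPM (-0.86 ± 0.11, edgeR adjusted p = 0.00143). Its call was lost against the untreated shaker libraries in place of the OA controls (-0.36, edgeR adjusted p = 0.277) and with all 14 shaker libraries in the fit (0.0814).

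The other 3 carriers were low or uneven between replicates. FABP6, the bile acid binding form of the ileum, stood at 2.08 and 1.52 CPM in the controls and at 1467 and 80.5 CPM in OA replicates 1 and 2 (log2 difference 8.75 ± 2.09, edgeR adjusted p = 0.039). Both OA libraries were higher, but replicate 1 was far above replicate 2, and the edgeR call was lost without either control library (adjusted p = 0.31 and 0.35). FABP7, the brain form, was lower at 2.47 and 4.61 CPM against 0.855 and 0.0854 CPM (-2.90 ± 0.83, edgeR adjusted p = 0.0318), a call also lost without either control library (0.111 and 0.197). FABP4, the fat cell form, fell from 2.98 and 0.80 CPM to 0.438 and 0.363 CPM in whole libraries (-2.23 ± 0.69, edgeR adjusted p = 0.0357) but not outside the mesenchymal-like clusters, at 0.253 and 0.0659 CPM against 0.328 and 0.357 CPM (edgeR adjusted p = 0.177), where it was called higher without control replicate 1 (0.0451) and with clusters from Leiden resolution 0.25 (0.0468). The FABP4 call in whole libraries was lost without control replicate 1 (edgeR adjusted p = 0.0978), OA replicate 1 (0.117) or OA replicate 2 (0.175). Other settings also ended calls in whole libraries, 5 of them for FABP6 (edgeR or DESeq2 adjusted p 0.0551 to 0.146), 5 for FABP7 (0.0676 to 0.283) and 3 for FABP4 (0.0863 to 0.258).

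**Figure D2:**
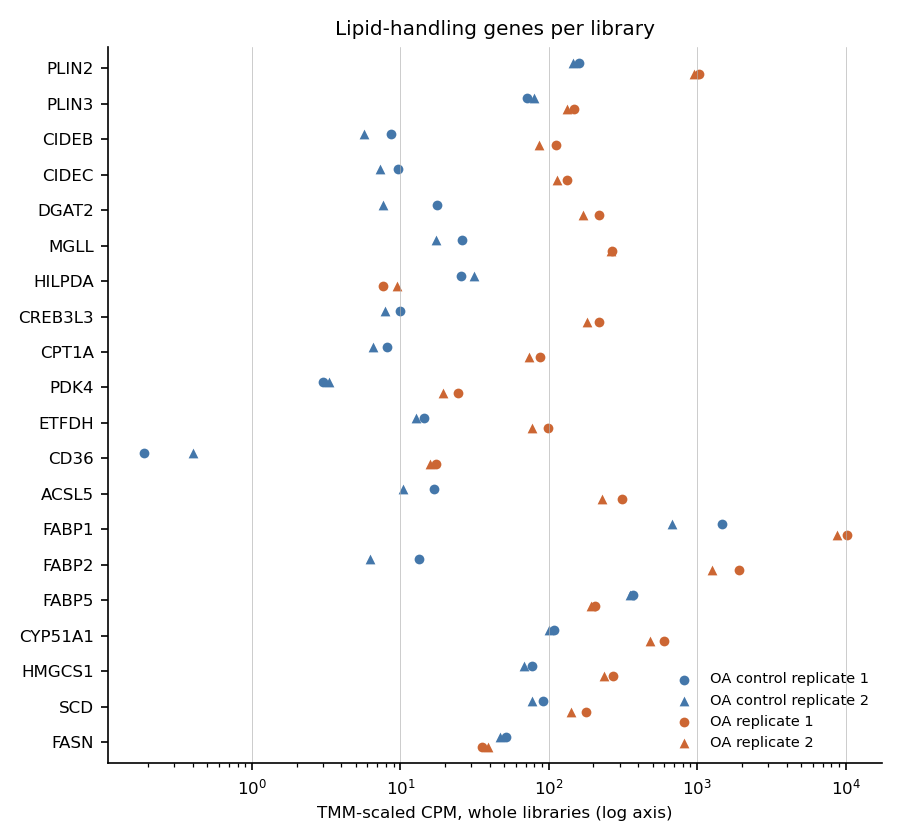
TMM-scaled CPM of 20 lipid-handling genes (log x axis) in each of the 4 libraries; blue marks control and orange OA libraries, circles replicate 1 and triangles replicate 2. Orange points lie to the right of blue ones for all genes shown except HILPDA, FABP5 and FASN, where both OA libraries are lower.

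Fatty acid synthesis was split. Of 19 genes tested, 7 rose and 8 fell in whole libraries, with a median of 0.08 that turned to -0.26 when libraries were scaled by total counts (5 higher, 9 lower). Without control replicate 1 the count that fell was 4. ME1, malic enzyme, which supplies NADPH, rose from 10.8 and 6.61 CPM to 64.8 and 53.8 CPM (log2 difference 2.77 ± 0.26, edgeR adjusted p = 0.000612). Fatty acid synthase, FASN, was lower at 51.2 and 46.7 CPM against 35.7 and 38.9 CPM (-0.39 ± 0.11, edgeR adjusted p = 0.02). The desaturase SCD, which makes monounsaturated fatty acids, was higher at 91.3 and 77.4 CPM against 179 and 142 CPM (0.93 ± 0.15, edgeR adjusted p = 0.00339). The FASN call was lost without control replicate 1 (edgeR adjusted p = 0.0668), OA replicate 1 (0.142) or OA replicate 2 (0.0696). With all 14 shaker libraries in the fit neither SCD (edgeR adjusted p = 0.0581) nor FASN (0.404) was called, and against the untreated shaker libraries SCD differed by 0.42 (0.496) and FASN by -0.03 (0.974). FASN and SCD were chosen after their values were seen. MLXIPL, the transcription factor that answers to sugar, was called lower at 2.25 and 1.6 CPM against 0.897 and 0.876 CPM (-1.12 ± 0.28, edgeR adjusted p = 0.0158), a call lost without control replicate 1 (0.068), OA replicate 1 (0.0574) or OA replicate 2 (0.0558), and also against the untreated libraries (0.115) or with all 14 in the fit (0.0849).

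Sterol synthesis rose. Of 22 genes tested for sterol synthesis and LDL uptake, 17 rose and 0 fell in whole libraries and likewise outside the mesenchymal-like clusters, with medians of 0.94 and 0.88. The demethylase CYP51A1 went from 109 and 99.8 CPM to 593 and 479 CPM (log2 difference 2.36 ± 0.15, edgeR adjusted p = 0.000199). HMGCS1, an early enzyme of sterol synthesis, went from 77.1 and 67.9 CPM to 272 and 234 CPM (1.80 ± 0.13, edgeR adjusted p = 0.00026). Both OA libraries were above both control libraries in each. SQLE and the regulator INSIG1 were also among those that rose. Against the untreated shaker libraries in place of the OA controls, 7 of the 22 rose and 0 fell, and HMGCS1 was no longer called (edgeR adjusted p = 0.151).

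Most apolipoprotein genes rose. Of 18 tested, 13 rose and 3 fell in whole libraries, with a median log2 difference of 2.33, and 13 rose and 2 fell outside the mesenchymal-like clusters. APOA4, an apolipoprotein of intestine that liver makes when loaded with lipid, went from 49.6 and 16.7 CPM to 4739.7 and 4662 CPM (log2 difference 7.15 ± 0.65, edgeR adjusted p = 0.000769). APOC3, an inhibitor of triglyceride clearance, went from 14.5 and 16.8 CPM to 1389 and 1018 CPM (6.26 ± 0.23, edgeR adjusted p = 9.25e-05). APOB and MTTP, which together build the lipoprotein particle, were also called higher. The 3 genes that fell were PLTP, LCAT and APOE. PLTP, which moves phospholipid between lipoproteins, went from 22.9 and 33.6 CPM to 2.86 and 2.05 CPM (-3.52 ± 0.26, edgeR adjusted p = 0.000309), and it fell outside the mesenchymal-like clusters too (-2.73 ± 0.25, edgeR adjusted p = 0.000616) and without clusters 7, 11 and 13 as well (-2.63 ± 0.20, edgeR adjusted p = 0.000106).

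Hepatocyte genes rose in part. Of 29 tested in whole libraries, 17 rose, 0 fell and 12 were not called, among them SERPINA1, TF and CPS1, and 17 rose and 0 fell outside the mesenchymal-like clusters. In cluster 6, of 19 tested, 2 rose and 3 fell, where 14.8% of all genes tested rose and 11.9% fell. AFP, the fetal counterpart of albumin, went from 429.9 and 424 CPM to 6603 and 5024 CPM (log2 difference 3.77 ± 0.21, edgeR adjusted p = 0.000158). PCK1, which starts glucose synthesis from lactate and amino acids, went from 2.13 and 1.25 CPM to 54.4 and 64.8 CPM (5.14 ± 0.27, edgeR adjusted p = 0.000181). G6PC, the phosphatase that releases glucose from liver, had 0 and 0 UMIs in the control libraries and 36 and 39 with OA (0.751 and 0.833 CPM, edgeR adjusted p = 0.000825). The hepatocyte-like cluster 12, where ALB is a leading gene, held 168 cells in OA replicate 1 and 9 in OA replicate 2. ALB itself was at 20.7 and 6.11 CPM in the controls and 773 and 334 CPM with OA (5.37 ± 0.89, edgeR adjusted p = 0.0104); the groups did not overlap, but each was uneven, and the call was lost without control replicate 1 (adjusted p = 0.0514) or control replicate 2 (0.097) and with no filter on low counts (0.0865).

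Nearly all gut epithelial genes rose. Of 30 tested, 27 rose and 1 fell in whole libraries, with a median log2 difference of 2.71, and 27 rose and 1 fell outside the mesenchymal-like clusters, with a median of 2.34. KRT20 (chr17:40875889-40885242), the keratin of differentiated gut cells, went from 17.6 and 9.34 CPM to 2413 and 2069.6 CPM (log2 difference 7.38 ± 0.40, edgeR adjusted p = 0.000186). The exception was LGR5, the receptor that marks intestinal stem cells, which fell from 9.66 and 6.43 CPM to 1.21 and 0.812 CPM (-2.99 ± 0.30, edgeR adjusted p = 0.000607). OLFM4, which marks intestinal stem cells and is also raised in inflamed epithelium, was chosen after its values were seen and rose from 43.4 and 85.2 CPM to 309 and 284 CPM (2.21 ± 0.33, edgeR adjusted p = 0.00298), so these 2 stem cell markers moved in opposite directions. Goblet and gastric genes (MUC2, MUC5AC, TFF1, TFF2) and absorptive genes (SI, ANPEP, SLC26A3) were both among those that rose.

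The KRT20 change reached many cells. With each cell thinned to 2000 UMIs, a KRT20 UMI was found in 1.56% and 0.740% of control cells and in 52.2% and 42.7% of OA cells (3.57%, 2.36%, 61.4% and 52% without thinning). In the squamous-like cluster 7, whose control cells held 0 and 1 KRT20 UMIs, the thinned shares were 0% and 0% in the control libraries. With OA they were 3.21% and 8.99%. Before thinning, the median depths of OA cells were 8410.5 and 6731.5 UMIs in cluster 7 against 9689 and 7555 UMIs overall. The OA shares over all cells were above those in cluster 7. Whether the KRT20 UMIs of cluster 7 come from free RNA, doublets or misassigned cells was not tested.

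Among 30 transcription factors of liver, ducts and gut, 19 rose and 1 fell in whole libraries, and 15 rose and 1 fell outside the mesenchymal-like clusters. NR1H4, the bile acid receptor FXR, went from 11.8 and 6.13 CPM to 79.2 and 54.6 CPM (log2 difference 2.90 ± 0.37, edgeR adjusted p = 0.00214). FOXA2, a pioneer factor of endoderm, was the one that fell, from 14 and 16.1 CPM to 5.59 and 8.63 CPM (-1.08 ± 0.22, edgeR adjusted p = 0.00731). The FOXA2 call was lost with cells thinned to 2000 UMIs (-0.56, edgeR adjusted p = 0.185) and against the untreated shaker libraries (0.161). The gut factors CDX1, CDX2, ISX and ATOH1 were among those called higher, and HNF4A was not called. With the untreated shaker libraries as reference, 7 rose and 0 fell. Of 20 ductal and simple epithelial genes 13 rose and 3 fell, against 10 and 3 outside the mesenchymal-like clusters. EPCAM, carried by all simple epithelia, went from 619.9 and 473 CPM to 2177 and 1930.4 CPM (1.91 ± 0.19, edgeR adjusted p = 0.000522), and MMP7, a protease of injured ducts, fell from 159.6 and 109 CPM to 51.2 and 51 CPM (-1.40 ± 0.19, edgeR adjusted p = 0.00168). The MMP7 call was lost against the untreated libraries (edgeR adjusted p = 0.267) and with all 14 shaker libraries in the fit (0.103).

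Inflammatory chemokines and NF-kB targets rose across the list. Of 29 tested, 25 rose and 1 fell in whole libraries, with a median log2 difference of 2.39, and 24 rose and 0 fell outside the mesenchymal-like clusters. CCL20 (chr2:227805739-227817564), a chemokine that epithelia release to draw CCR6-bearing lymphocytes and dendritic cells, went from 118 and 79.4 CPM to 4032 and 4286 CPM (log2 difference 5.39 ± 0.26, edgeR adjusted p = 0.00014). BIRC3, an NF-kB target that blocks cell death, went from 9.98 and 9.18 CPM to 224 and 191 CPM (4.44 ± 0.14, edgeR adjusted p = 8.27e-05). IL1B, the cytokine that itself activates NF-kB, went from 0.186 and 0.544 CPM to 14.4 and 9.38 CPM (5.00 ± 0.46, edgeR adjusted p = 0.000612). Replicates lay close together in CCL20 and BIRC3, and the groups were far apart in all 3.

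The neutrophil chemokines CXCL1, CXCL2 and CXCL3, chosen after their values were seen, are neighbours on chromosome 4. CXCL1 went from 59.1 and 56.4 CPM to 499 and 517 CPM (log2 difference 3.14 ± 0.12, edgeR adjusted p = 9.25e-05). CXCL2 went from 46.9 and 53.4 CPM to 275 and 250.3 CPM (2.39 ± 0.13, edgeR adjusted p = 0.000147). CXCL3 went from 48.5 and 47.9 CPM to 384 and 344 CPM (2.92 ± 0.12, edgeR adjusted p = 0.000111). These genes are close paralogs, so reads could be shared between them where the 3′ ends match. CCL2, a monocyte chemokine that mesenchymal cells also make, was the member that fell, from 14.6 and 12.4 CPM to 5.19 and 7.69 CPM (-1.07 ± 0.21, edgeR adjusted p = 0.00675). It was not called outside the mesenchymal-like clusters, and in whole libraries its call was lost under 3 other settings (edgeR adjusted p 0.056 to 0.74).

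The promoters of 4 chemokines and of BIRC3, all called higher, are shown here because they were found to hold the letters that NF-kB prefers. Other raised chemokines, CXCL8 and CCL28 among them, had no match in this window. The stretches are the 250 bases before the start of each gene, 5′ to 3′ on the gene's own strand, from RefSeq (GRCh38.p14), whose start for CCL20 lies inside the longer GENCODE interval given above: CXCL1 at chr4:73869143-73869392 on the plus strand, CXCL2 at chr4:74099196-74099445 and CXCL3 at chr4:74038690-74038939 on the minus strand, CCL20 at chr2:227813592-227813841 and BIRC3 at chr11:102317234-102317483 on the plus strand. Capitals mark each match, on either strand, to GGG followed by any 2 bases and then TTTCC.
CXCL1: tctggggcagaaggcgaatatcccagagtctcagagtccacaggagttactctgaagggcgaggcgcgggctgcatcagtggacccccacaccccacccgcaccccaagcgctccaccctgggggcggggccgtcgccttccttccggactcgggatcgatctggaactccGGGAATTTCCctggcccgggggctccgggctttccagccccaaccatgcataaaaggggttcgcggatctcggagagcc
CXCL2: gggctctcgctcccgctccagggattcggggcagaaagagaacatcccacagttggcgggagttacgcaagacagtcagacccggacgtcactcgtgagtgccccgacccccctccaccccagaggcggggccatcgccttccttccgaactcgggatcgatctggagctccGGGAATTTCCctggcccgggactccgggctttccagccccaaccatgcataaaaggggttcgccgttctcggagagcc
CXCL3: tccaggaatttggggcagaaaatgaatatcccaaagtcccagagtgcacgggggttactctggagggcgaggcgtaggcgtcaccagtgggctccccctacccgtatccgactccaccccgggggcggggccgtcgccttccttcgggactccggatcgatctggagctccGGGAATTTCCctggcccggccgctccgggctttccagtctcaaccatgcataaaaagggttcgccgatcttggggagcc
CCL20: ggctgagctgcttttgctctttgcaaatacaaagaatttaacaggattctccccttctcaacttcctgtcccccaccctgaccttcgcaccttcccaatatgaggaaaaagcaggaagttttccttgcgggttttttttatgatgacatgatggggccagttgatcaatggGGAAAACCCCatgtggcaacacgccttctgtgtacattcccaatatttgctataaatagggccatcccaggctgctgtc
BIRC3: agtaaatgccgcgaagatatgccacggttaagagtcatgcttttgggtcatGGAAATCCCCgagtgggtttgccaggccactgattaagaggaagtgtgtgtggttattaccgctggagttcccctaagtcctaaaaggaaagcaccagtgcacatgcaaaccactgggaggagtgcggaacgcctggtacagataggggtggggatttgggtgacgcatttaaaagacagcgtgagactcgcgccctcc

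The match begins 79, 78 and 79 bases before the start in CXCL1, CXCL2 and CXCL3 and has the same letters, GGGAATTTCC, in all 3. In CCL20 it lies on the opposite strand at 79 bases, and in BIRC3 on the opposite strand at 199 bases. Over the whole list, 26 promoters were found in the table and 13 (50%) held a match, against 473 of 27305 promoters of the same length (1.73%). A match is a description of the letters and not of binding, and the list was itself built from known NF-kB targets. For comparison, the PPAR-type repeat, AGGNCA and AGGNCA with 1 base between, was in 1 of 22 oxidation promoters, that of CREB3L3, and in 73 of all 27305 (0.267%). An HNF4-type stretch, CAAAGTCCA, was in 0 of 16 apolipoprotein promoters and 80 of all (0.293%), and a CDX-type stretch, TTTATGG, in 2 of 21 gut promoters and 663 of all (2.43%), both strands searched.

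**Figure D3:**
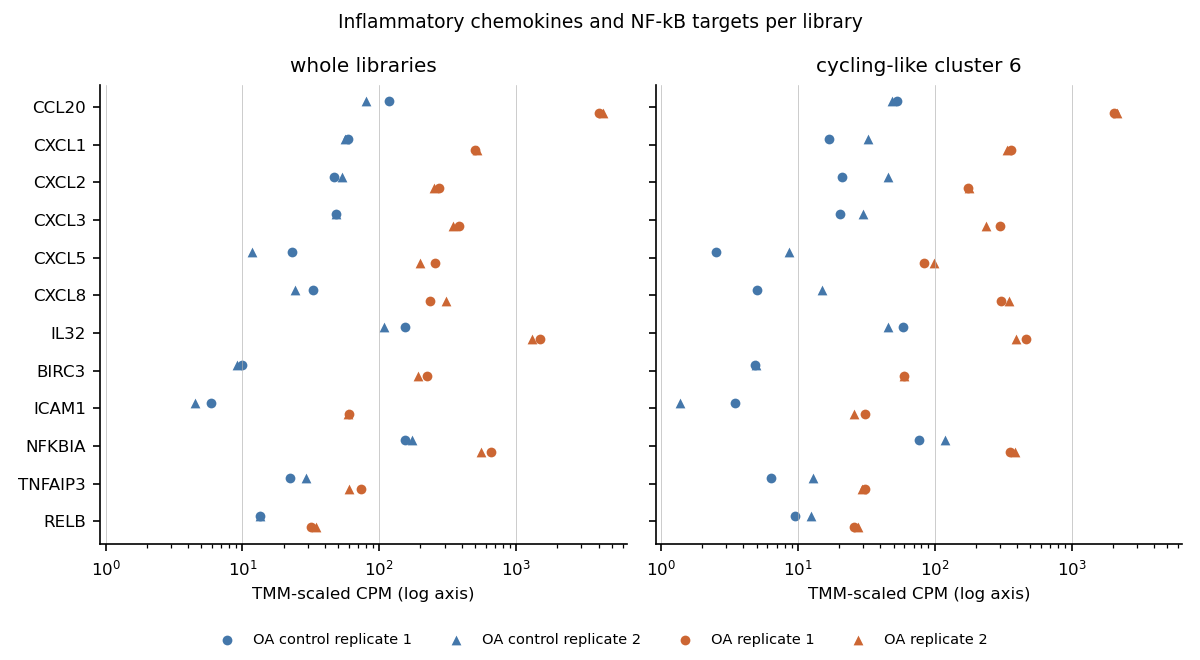
TMM-scaled CPM (log x axis) of 12 chemokine and NF-kB target genes in whole libraries (left) and in the cycling-like cluster 6 (right), per library; blue marks control and orange OA libraries, circles replicate 1 and triangles replicate 2. In both panels every orange point lies to the right of the blue points of its gene.

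Acute phase and complement genes did not follow. Of 19 tested, 8 rose and 3 fell in whole libraries (8 and 3 of 18 outside the mesenchymal-like clusters), with a median of 0.05 that turned to -0.30 for acute phase and complement under scaling by total counts. The complement component C3 rose from 47.5 and 61.4 CPM to 270.0 and 281 CPM (log2 difference 2.34 ± 0.15, edgeR adjusted p = 0.000204), and the protease C1R, made by mesenchymal cells among others, fell from 14.3 and 18.2 CPM to 1.23 and 1.3 CPM (-3.68 ± 0.19, edgeR adjusted p = 0.000142). SAA1, SERPINA3 and ORM2 were not called, and CRP was too low to test. Of 25 antigen presentation and interferon genes 14 rose and 4 fell, and 13 and 3 outside the mesenchymal-like clusters. B2M, the light chain of MHC class I, went from 1386 and 1000.4 CPM to 4121 and 4107 CPM (1.79 ± 0.20, edgeR adjusted p = 0.000856). BST2, an interferon-induced restriction factor, fell from 15.4 and 20.0 CPM to 0.292 and 0.449 CPM (-5.58 ± 0.26, edgeR adjusted p = 0.000139), and it fell outside the mesenchymal-like clusters as well (-4.33 ± 0.28, edgeR adjusted p = 0.000285). Without clusters 7, 11 and 13 as well, BST2 stood at 1.87 and 1.15 CPM against 0.277 and 0.255 CPM (-2.50 ± 0.38, edgeR adjusted p = 0.00151).

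Matrix genes fell, as did the share of the cells that make most of them. Of 38 collagen and matrix genes 30 fell and 2 rose in whole libraries, with a median of -2.14. COL1A1 (chr17:50184101-50201632), the chain of fibrillar collagen I, went from 669 and 1057 CPM to 14.2 and 15.6 CPM (log2 difference -5.86 ± 0.28, edgeR adjusted p = 0.000142). Outside the mesenchymal-like clusters 28 fell and 5 rose, and COL1A1 stood at 159 and 288 CPM against 12.8 and 14.4 CPM (-4.04 ± 0.32, edgeR adjusted p = 0.000639). Without clusters 7, 11 and 13 as well, COL1A1 stood at 75.4 and 58.2 CPM against 6.1 and 6.03 CPM (-3.46 ± 0.15, edgeR adjusted p = 2.81e-05), and 25 of the 38 fell and 9 rose. The fall was thus smaller the more of these clusters were taken out, and the part that free RNA plays in what remains was not tested. LAMB3, a laminin chain of epithelial basement membrane, rose in whole libraries from 41.1 and 32.3 CPM to 172 and 153 CPM (2.15 ± 0.15, edgeR adjusted p = 0.000233).

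Genes of the mesenchyme fell in every list that holds them: 21 of 26 mesenchymal transcription factors and signals, 12 of 15 contractile genes and 10 of 11 stellate cell markers, with 0 higher in each. Without clusters 7, 11 and 13 as well as the mesenchymal-like ones, 15 of 19 such factors and signals, 8 of 14 contractile genes and 5 of 6 stellate markers fell, and 2, 3 and 0 rose. The summed level of the stellate list was 110.3 and 166.3 CPM in the controls and 7.489 and 9.741 CPM with OA. Smooth muscle actin, ACTA2, went from 82.7 and 120.4 CPM to 2.4 and 3.2 CPM (log2 difference -5.18 ± 0.26, edgeR adjusted p = 0.00017). These values move with the share of mesenchymal-like cells, and with 46 such cells left in the OA libraries no test was made within them.

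Hedgehog signalling runs from epithelial ligands to mesenchymal receptors, and the 2 ends moved apart. Of 13 genes tested 10 fell and 2 rose. The ligand SHH rose from 23.2 and 18.4 CPM to 60.7 and 67.2 CPM (log2 difference 1.62 ± 0.14, edgeR adjusted p = 0.000394). IHH, the other ligand that rose, went from 21.8 and 12.8 CPM to 34.3 and 38.1 CPM (1.07 ± 0.25, edgeR adjusted p = 0.0151) and lost its call without OA replicate 2 (adjusted p = 0.0643). Against the untreated shaker libraries neither SHH (edgeR adjusted p = 0.145) nor IHH (0.143) was called, and IHH was not with all 14 shaker libraries in the fit (0.0575). The receptor and target PTCH1 fell from 18.6 and 22.2 CPM to 1.46 and 1.9 CPM (-3.60 ± 0.18, edgeR adjusted p = 0.000142), and outside the mesenchymal-like clusters from 6.64 and 10.9 CPM to 1.4 and 1.68 CPM (-2.51 ± 0.29, edgeR adjusted p = 0.00119). Without clusters 7, 11 and 13 as well, PTCH1 stood at 4.34 and 4.93 CPM against 1.36 and 1.61 CPM (-1.64 ± 0.21, edgeR adjusted p = 0.000651), and 8 of the 13 fell and 3 rose.

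Wnt pathway genes fell, both ligands and targets. Of 21 tested 16 fell and 1, the ligand WNT4, rose, and outside the mesenchymal-like clusters 15 of 20 fell and 1 rose. RSPO3, a stromal ligand that sharpens Wnt signals, went from 28.1 and 42.2 CPM to 1.13 and 1.03 CPM (log2 difference -5.03 ± 0.25, edgeR adjusted p = 0.000147). NKD1, a feedback inhibitor induced by Wnt, went from 4.87 and 7.21 CPM to 0.313 and 0.0427 CPM (-5.06 ± 0.60, edgeR adjusted p = 0.00132), with close values outside the mesenchymal-like clusters, 3.71 and 5.53 CPM against 0.308 and 0.0420 CPM (-4.69 ± 0.64, edgeR adjusted p = 0.00253). Without clusters 7, 11 and 13 as well, 13 of the 20 fell and 2 rose, and NKD1 differed by -4.69 ± 0.62 (edgeR adjusted p = 0.00154). LGR5, described above, belongs to this list too. AXIN2, LEF1, NOTUM, SP5 and ZNRF3, targets or feedback genes of the same pathway, were also among those that fell.

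Cell cycle genes fell in whole libraries. Of 22 S phase and mitosis genes 21 fell and 0 rose, with a median of -1.24, and 22 of 22 fell outside the mesenchymal-like clusters, with a median of -1.51. The latter set still holds cluster 11, the collagen-rich cycling cluster found almost only in the controls; without clusters 7, 11 and 13 as well, 22 of 22 fell, with a median of -1.27. Within the cycling-like cluster 6, which these genes define, 4 were higher and 5 lower, where 14.8% and 11.9% of all genes tested were. MCM2, part of the helicase that opens replication origins, went from 9.94 and 10.7 CPM to 1.73 and 2.33 CPM (log2 difference -2.35 ± 0.19, edgeR adjusted p = 0.000314), and TYMS, which makes thymidylate, from 55.9 and 51.5 CPM to 10.0 and 12.8 CPM (-2.24 ± 0.14, edgeR adjusted p = 0.000199). The CDK inhibitor CDKN1A rose from 72.7 and 57.6 CPM to 208 and 178 CPM (1.57 ± 0.16, edgeR adjusted p = 0.000561). Its list was split, with 8 of 16 higher and 4 lower, and 3 higher and 5 lower under scaling by total counts. Without OA replicate 1 the count that rose was 4.

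Stress lists rose to differing degrees. Of 21 endoplasmic reticulum chaperone and unfolded protein response genes 19 rose and 0 fell (13 and 1 under scaling by total counts), and likewise 19 and 0 outside the mesenchymal-like clusters. The chaperone HYOU1 went from 36.8 and 32.7 CPM to 122 and 115 CPM (log2 difference 1.77 ± 0.11, edgeR adjusted p = 0.000193), and DNAJB9, a target of XBP1, from 16.4 and 19.7 CPM to 59.5 and 54.6 CPM (1.66 ± 0.13, edgeR adjusted p = 0.000277). Of 17 integrated stress response genes 12 rose and 3 fell (7 and 4 under total counts), against 11 and 2 outside the mesenchymal-like clusters. CHAC1, a glutathione-degrading enzyme of that response, went from 1.23 and 1.25 CPM to 6.42 and 4.83 CPM (2.18 ± 0.22, edgeR adjusted p = 0.000582), whereas PHGDH, the first enzyme of serine synthesis, fell from 73.5 and 98.2 CPM to 40.1 and 37.5 CPM (-1.15 ± 0.16, edgeR adjusted p = 0.00167). ASNS and ATF4 were not called. With the untreated shaker libraries as reference, 9 of the 21 chaperone genes and 6 of the 17 integrated stress response genes rose. Of all 18264 genes tested against that reference, 2697 were called higher.

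Of 20 NRF2 and antioxidant genes 18 rose and 1 fell, and 16 and 1 outside the mesenchymal-like clusters. AKR1C1, an NRF2 target that reduces lipid aldehydes, went from 10.5 and 10.9 CPM to 193 and 187 CPM (log2 difference 4.15 ± 0.11, edgeR adjusted p = 8.27e-05). NQO1, a quinone reductase and another target, went from 62.2 and 31.1 CPM to 388 and 378 CPM (3.04 ± 0.34, edgeR adjusted p = 0.0012). The aldo-keto reductases have close paralogs, so their counts could be split. Of 20 hypoxia and glycolysis genes 7 were higher and 1 lower, against 30.1% and 29.4% of all genes tested. Under scaling by total counts 5 of them were higher and 6 lower, where 3621 and 7452 of all 18263 genes were. Outside the mesenchymal-like clusters 6 were higher and 3 lower. Hexokinase 2, HK2, was the member with the largest rise in whole libraries, from 6.78 and 5.52 CPM to 51 and 43.5 CPM (2.94 ± 0.15, edgeR adjusted p = 0.000142).

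**Figure D4:**
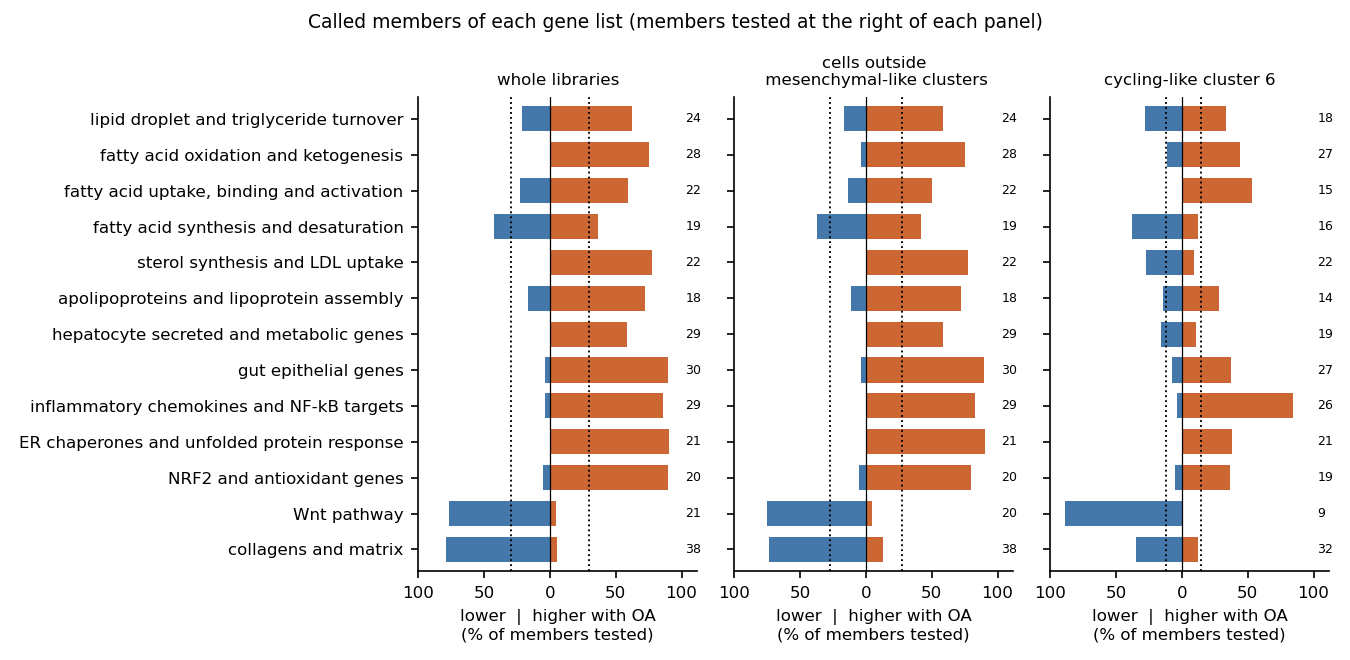
Share of tested members of 13 gene lists that were called higher (orange, right of 0) or lower (blue, left of 0) with OA, in % of members tested, in whole libraries, outside the mesenchymal-like clusters and in the cycling-like cluster 6; dotted lines mark the share of all genes tested that were called in that direction, and the number at the right of each panel is the count of members tested. Inflammatory genes stand well past the dotted line in all 3 panels, at 25 of 29, 24 of 29 and 22 of 26, whereas sterol synthesis does so in the first 2 panels only.

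The cycling-like cluster 6 held 413 and 205 control cells and 170 and 176 OA cells. It is led by cell cycle genes, and it could be compared alone because each library had enough cells of it. EPCAM was at 815 and 724 CPM in its control cells and 736 and 786 CPM in its OA cells, but KRT20 was at 6.55 and 0.687 CPM against 223 and 329 CPM, and whether its cells are otherwise of 1 kind in both conditions was not tested. Of 12059 genes tested there, 3226 were called, which is 26.8% (14.8% higher, 11.9% lower). Leaving out control replicate 1 gave 1616 calls, OA replicate 1 gave 1928 and OA replicate 2 gave 1554. The inflammatory list was again raised, with 22 of 26 genes higher and 1 lower and a median of 2.81. CCL20 went from 53.2 and 49.1 CPM to 2026 and 2136 CPM in the cluster (log2 difference 5.34 ± 0.19, edgeR adjusted p = 1.25e-07). CXCL8, chosen after its values were seen, went from 5.02 and 14.9 CPM to 304 and 348 CPM (5.06 ± 0.53, edgeR adjusted p = 0.00708). Both OA libraries were far above both control libraries in these genes, and the CXCL8 call was lost without OA replicate 2 (edgeR adjusted p = 0.0651).

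The lipid response was only partly present in cluster 6. PLIN2 went from 145 and 154 CPM to 583 and 448 CPM (log2 difference 1.79 ± 0.17, edgeR adjusted p = 6.84e-05), CPT1A from 6.97 and 5.49 CPM to 60.3 and 45.1 CPM (3.06 ± 0.22, edgeR adjusted p = 1.42e-05), and CREB3L3 from 9.19 and 7.38 CPM to 55.3 and 48.8 CPM (2.64 ± 0.19, edgeR adjusted p = 1.48e-05). The droplet list as a whole had 6 of 18 genes higher and 5 lower, the oxidation list 12 of 27 higher and 3 lower, and the uptake list 8 of 15 higher and 0 lower. Without control replicate 1 the uptake count was 3 higher and the droplet count 2 lower. Sterol synthesis had 2 of 22 higher and 6 lower, against 17 higher and 0 lower outside the mesenchymal-like clusters, and without OA replicate 1 the cluster's counts were 0 and 3. FASN fell in the cluster from 95.4 and 77.8 CPM to 31.8 and 46 CPM (-1.14 ± 0.19, edgeR adjusted p = 0.00176). Wnt genes fell, 8 of the 9 tested, with 0 higher. That count was 2 with DESeq2 and 1 without OA replicate 2.

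The difference itself was tested in 1 fit of cluster 6 and of the other cells outside the mesenchymal-like clusters, with the library as a block. Of 16403 genes, 3421 (20.9%) had an OA effect that differed, 8.54% with the larger value in cluster 6 and 12.3% with the larger value in the other cells. Without OA replicate 1 the count was 2144. The effect was lower in cluster 6 for 20 of 22 sterol genes and 13 of 21 droplet genes and higher for 0 of either. For oxidation 18 of 28 were lower and 1 higher. For inflammation 5 of 28 were higher (CCL2, TNF, CXCL3, TNFRSF12A and CCL20) and 1, CXCL16, was lower. Without control replicate 2 the inflammatory count was 11 higher. Scaling by total counts moved the median difference by 0.32 and turned the split of calls, from 41.0% to 77.2% in the higher direction; the sterol and droplet counts were then 18 lower with 0 higher and 13 lower with 3 higher. Without clusters 7, 11 and 13 among the other cells 2692 genes differed, and the effect was lower in cluster 6 for 20 of 22 sterol genes, 12 of 21 droplet genes and 14 of 28 oxidation genes. For inflammation 8 of 28 were then higher. The other cells of the 2 conditions lie in different clusters, and the part this plays in the difference was not tested.

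FDPS, which makes farnesyl diphosphate for sterols and prenylation, is an example chosen after its values were seen. In cluster 6 it went from 297 and 275 CPM to 166 and 185 CPM (log2 difference -0.70 ± 0.15, edgeR adjusted p = 0.00563), and over the whole set outside the mesenchymal-like clusters from 157 and 147 CPM to 433 and 372 CPM (1.40 ± 0.13, edgeR adjusted p = 0.000565). The call in cluster 6 was lost without OA replicate 1 (edgeR adjusted p = 0.11) or OA replicate 2 (0.0581). The OA effect was of opposite sign in the 2 sets, and the difference in the joint fit was -2.31 ± 0.12 on the log2 scale. FDPS was picked for these opposite signs, so its difference is a description.

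The squamous-like cluster 7, led by KRT5, KRT13 and S100A8, held 388 and 274 control cells and 172 and 104 OA cells. GABRP and WNT6 were also among its leading genes. Over its cells COL3A1 was at 1213 CPM, EPCAM at 341 CPM and TP63 at 7.45 CPM. Whether the cells of cluster 7 are of 1 kind was not tested. Of 10837 genes tested 305 were called, which is 2.81% (2.20% higher, 0.618% lower). Of 18 inflammatory genes 5 were called higher (CXCL8, ICAM1, CXCL1, RELB and TNFAIP3) and 0 lower. ICAM1, the adhesion molecule for leukocytes, went from 0.765 and 0.952 CPM to 11.3 and 13.3 CPM (log2 difference 3.71 ± 0.52, edgeR adjusted p = 0.0183). RELB, a subunit of NF-kB, went from 9.56 and 9.14 CPM to 24.1 and 38.9 CPM (1.70 ± 0.31, edgeR adjusted p = 0.0308). Both genes, chosen after their values were seen, lost their calls without control replicate 1 (edgeR adjusted p = 0.146 for ICAM1 and 0.235 for RELB) or control replicate 2 (0.314 and 0.451). Genes very low in the control cells of the cluster were called higher in the same fit. KRT20 stood at 0 and 0.190 CPM against 73.9 and 30.7 CPM and APOA4 at 1.53 and 0.571 CPM against 57.7 and 61.4 CPM (edgeR adjusted p = 0.0139 and 0.000446), far below their levels in whole OA libraries. CXCL1 in the cluster, 25.6 and 52.2 CPM with OA, was likewise far below its whole-library level, whereas TNFAIP3, at 84.3 and 131 CPM, was above its 73.6 and 59.9 CPM there. The TNFAIP3 call in the cluster was lost with a replicate block (edgeR adjusted p = 0.0598), under total counts (0.0528) and without control replicate 1 (0.212) or 2 (0.518), and the CXCL1 call without control replicate 1 (0.128) or 2 (0.368). The part that free RNA plays in the inflammatory calls of cluster 7 was not tested. Of 20 antigen presentation and interferon genes 5 fell (BST2, IFIT1, IFI27, MX1 and ISG15) and 0 rose. These calls rest on the control libraries: without control replicate 2 edgeR called 0 genes in the cluster (925 at an unadjusted p under 0.05; DESeq2 with all libraries called 214), and without control replicate 1 it called 10. It called 1181 without OA replicate 1 and 561 without OA replicate 2.

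OA and PA were compared at the same labelled concentration and time, each against its own control, in a fit of 8 libraries. PA is not spelled out in the labels either. The effect of OA differed from that of PA for 4939 of 18885 genes, which is 26.2% (13.1% higher with OA, 13.0% lower). The count was 2730 without OA replicate 1 and 2780 without OA control replicate 2. PA alone called 16 genes in that fit, 0.0847% of those tested, all higher (697 at an unadjusted p under 0.05). The PA libraries were of uneven depth, at 6880807 and 45303089 kept UMIs in the controls and 23807698 and 58239103 with PA, and the 2 experiments were counted with different software versions. The experiments, their versions and their batches cannot be told apart, although each effect is taken within its own experiment. The fit used whole-library sums, and the cell makeup of the PA libraries was not compared. What part cell makeup plays in the differences below was not tested.

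Many lipid genes had a larger effect in whole libraries with OA than with PA. PLIN2 went from 176 and 161 CPM to 1146 and 1034 CPM in the OA experiment and from 138 and 146 CPM to 325 and 219 CPM in the PA experiment, a difference of effects of 1.76 ± 0.31 on the log2 scale (edgeR adjusted p = 0.00335). CPT1A stood at 8.97 and 7.2 CPM and 96.6 and 80.8 CPM with control and OA and at 13.5 and 13.8 CPM and 21.6 and 18.9 CPM with control and PA (2.89 ± 0.25, edgeR adjusted p = 0.000203). CREB3L3 was at 8.46 and 5.15 CPM in the PA controls and 9.18 and 9.68 CPM with PA, and its OA effect was larger by 3.92 ± 0.34 (edgeR adjusted p = 0.00019). In PLIN2 and CPT1A both PA libraries lay above both PA controls, but by far less than the OA libraries did above theirs. Of 26 droplet genes 12 had the higher value with OA and 1 with PA, and of 28 oxidation genes 15 and 1.

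ANGPTL4, a PPAR target that inhibits lipoprotein lipase, was the oxidation gene with the higher value for PA. It stood at 5.99 and 14.8 CPM with the OA control and 3.98 and 7.78 CPM with OA, and at 10.1 and 18.4 CPM with the PA control and 28.7 and 39.7 CPM with PA, a difference of -2.04 ± 0.66 (edgeR adjusted p = 0.0492). The ANGPTL4 call was lost when any 1 of 6 of the 8 libraries was left out, all but OA control replicate 1 and OA replicate 2 (edgeR adjusted p 0.0605 to 0.194). It was also lost with no filter on low counts (0.25) and under scaling by total counts (0.0581). Sterol genes had 11 of 22 higher with OA and 0 with PA, a count that fell to 3 without OA replicate 1. HMGCS1 was at 105 and 81.3 CPM in the PA controls and 85.4 and 107 CPM with PA, which overlap, and the difference of effects was 1.75 ± 0.29 (edgeR adjusted p = 0.00251). Gut epithelial genes had 22 of 30 higher with OA and 1 lower, and collagen and matrix genes 2 higher and 26 lower.

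CCL20, CXCL1, CXCL2, CXCL3 and BIRC3 were among the 16 genes that PA raised, and all 5 rose with OA. Of 29 inflammatory genes 9 had a larger effect with OA and 1 a smaller one, with 6 larger without OA control replicate 2 and 14 without PA replicate 2. BIRC3 rose from 6.96 and 5.66 CPM to 26.6 and 35.1 CPM with PA, against 11 and 10.1 CPM to 249 and 209 CPM with OA, a difference of 2.11 ± 0.28 (edgeR adjusted p = 0.00108). For CXCL1, at 68 and 66.5 CPM and 281 and 572 CPM with control and PA, the difference of 0.47 ± 0.40 did not pass (edgeR adjusted p = 0.42). CCL20 stood at 54.3 and 30.4 CPM in the PA controls and 295 and 819 CPM with PA, and its difference of 1.66 ± 0.63 did not pass either (edgeR adjusted p = 0.0833). The CCL20 difference passed without PA replicate 2 (2.59, edgeR adjusted p = 0.00579) and with DESeq2 (1.71, adjusted p = 0.00857), and the CXCL1 difference passed without PA replicate 2 (1.09, edgeR adjusted p = 0.00784). CXCL1 was chosen after its values were seen. A difference that misses the threshold does not show that OA and PA act alike.

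**Figure D5:**
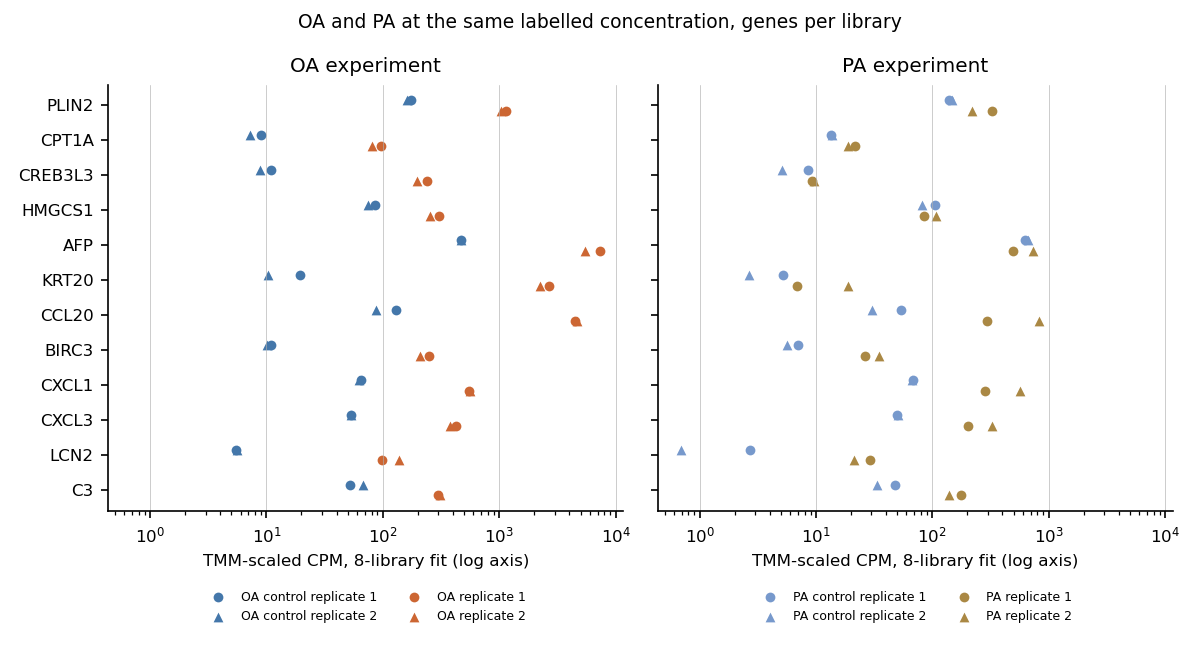
TMM-scaled CPM (log x axis) of 12 genes in the OA experiment (left) and the PA experiment (right), per library; blue points are control libraries, orange points OA and brown points PA libraries, circles replicate 1 and triangles replicate 2. PLIN2 and CPT1A lie far apart by treatment on the left and apart by far less on the right, and CCL20, BIRC3, CXCL1, CXCL3, LCN2 and C3 are apart in both panels.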

How the data were processed

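The 4 OA libraries and 4 PA libraries were 10x single-cell RNA libraries. The authors deposited filtered matrices of UMI counts, made with cellranger 6.0.2 for OA and its control and 3.0.2 for PA per the file headers; GRCh38 and Scanpy are named in the submitters' processing notes. Every deposited barcode held 500 or more UMIs. From these counts, kept cells were clustered (scanpy 1.11.5, Leiden resolution 0.5) and named from marker lists, UMIs were summed per library and cell set, and sums were compared with edgeR 4.0.16 (filterByExpr, TMM, quasi-likelihood test, Benjamini-Hochberg adjustment over all genes). DESeq2 1.42.0, other scalings, filters, cell sets and left-out libraries were alternatives. Predicted doublets were kept, since the caller's own threshold marked almost none, and an alternative removed the highest scores. Clusters 6 and 7 and their difference were added after the clusters were seen. The script was run on simulated counts with 100 genes changed by 1 and 100 by 2 on the log2 scale. It recovered 60% and 88% of them in whole libraries and 6% and 69% for OA against PA. Of the calls, 7.5% were false in whole libraries and 8.54% for OA against PA. Far more genes were called in the data, so the simulation does not test the scaling there. Named genes were, per list, up to 4 past the threshold in the main direction and 2 in the other, plus the perilipin and fatty acid binding protein families and genes that check the labels; others are marked in the text. The comparison, its gene lists and members were chosen with earlier results of these data known. Positions are from GENCODE 44. Some genes of the lists are not reported by name here.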

Additional observations from a re-analysis of the deposited data

Results flagged for a closer look

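Genes of the S phase and mitosis list, which define cluster 6, were left out of the count below. Some of them also moved in opposite directions. Of 158 other reported list genes called both outside the mesenchymal-like clusters and in the cycling-like cluster 6, 10 were called with opposite directions. The first set contains the second, both come from the same libraries, and the 10 genes were chosen for their opposite signs, so that the difference between the OA effects also passed for them in the joint fit of cluster 6 and the other cells is no further evidence. Values below are the log2 effect of OA outside the mesenchymal-like clusters, that in cluster 6, and the difference in the joint fit.

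Lipid and sterol enzymes made up 5 of them. For DGAT1, which makes triglyceride, they were 1.71, -0.80 and -2.47 ± 0.18 (edgeR adjusted p = 1.41e-07). The desaturase SCD had 0.77, -0.93 and -1.78 ± 0.15 (edgeR adjusted p = 2.73e-07). MVD of the mevalonate pathway had 0.68, -0.86 and -1.66 ± 0.18 (edgeR adjusted p = 1.59e-06). IDI1 of the same pathway had 1.15, -0.44 and -1.70 ± 0.13 (edgeR adjusted p = 2.68e-08). FDPS had 1.40, -0.70 and -2.31 ± 0.12 (edgeR adjusted p = 1.48e-10).

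APOA1, the main protein of HDL, had 2.59, -1.80 and -4.34 ± 0.16 (edgeR adjusted p = 3.94e-08). The intestinal cadherin CDH17 had 1.29, -0.82 and -2.13 ± 0.12 (edgeR adjusted p = 5.37e-10). The tight junction gene CLDN3 had 0.65, -0.72 and -1.33 ± 0.15 (edgeR adjusted p = 3.88e-06). The chemokine CXCL16 had 0.80, -1.07 and -1.86 ± 0.21 (edgeR adjusted p = 3.11e-06). The CDK inhibitor CDKN1C had 0.92, -0.63 and -1.47 ± 0.17 (edgeR adjusted p = 4.54e-05).

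In cluster 6 alone the edgeR call was lost without control replicate 1 for CDKN1C, CLDN3, CXCL16 and DGAT1 (adjusted p 0.0613 to 0.134) and without control replicate 2 for IDI1 (0.167). Without OA replicate 1 it was lost there for CDKN1C, CLDN3, DGAT1, FDPS and IDI1 (edgeR adjusted p 0.064 to 0.279), and without OA replicate 2 for CDH17, CXCL16, FDPS and IDI1 (0.0581 to 0.177). DESeq2 ended it there for IDI1 (adjusted p = 0.215), CLDN3 (0.0648) and CXCL16 (0.0623), and scaling by total counts for IDI1 (edgeR adjusted p = 0.155). Outside the mesenchymal-like clusters the calls of CDKN1C and MVD were lost with cells thinned to 2000 UMIs (edgeR adjusted p = 0.0765 and 0.0862).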

How the results depend on the processing

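The count of genes called in whole libraries was 6073 with a minimum of 10 CPM in 2 libraries, 7210 with cells thinned to 2000 UMIs and 5363 against the untreated shaker libraries, and outside the mesenchymal-like clusters 5743 and 5846 under the first 2 of these. Fewer genes were tested under the CPM minimum (8634 and 8465) and with thinned cells (13454 and 13108); the cause of the other changes was not tested. DESeq2 called 1590 genes in cluster 6 and 2038 in its difference from other cells, and scaling by total counts called 171 in cluster 7. Leaving out 1 library at a time gave 7931 to 10153 genes in whole libraries, 6577 to 9198 outside the mesenchymal-like clusters, 1554 to 2387 in cluster 6, 0 to 1181 in cluster 7, 2730 to 5382 for OA against PA and 2144 to 3101 for cluster 6 against other cells. The labels do not say whether replicate numbers pair the samples. The correlation of replicate deviations across genes was 0.0532 in whole libraries and 0.0634 outside the mesenchymal-like clusters. Such a value cannot show that no culture or batch was shared. With a replicate block the counts were 10961, 9923, 3370, 213 and 5250 for whole libraries, outside, cluster 6, cluster 7 and OA against PA. Scaling by total counts split the calls into 3309 higher and 6491 lower outside the mesenchymal-like clusters, 1785 and 929 in cluster 6, 1540 and 3297 for OA against PA, and 3253 and 959 for cluster 6 against other cells. The mesenchymal-like share differed by -29.59 to -40.95 points over its alternatives. EPCAM in cluster 6, never called, differed by 0.0606 under total counts and by -0.0977 to 0.0681 without 1 library. Cells of a cluster are few, which limits what clusters 6 and 7 can show, and 2 libraries a group limit every test.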
